A study of Saccharomyces cerevisiae with 6 samples.

Results

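The 32 proteins named Rps0 to Rps31 belong to the 40S subunit of the budding yeast ribosome, and 56 genes encode them. These 56 genes were taken by their systematic names from a table of 7126 genes. An A and a B gene on different chromosomes encode 24 of the proteins, and 1 gene each encodes the other 8, among them RPS2, RPS3, RPS12, RPS13, RPS15, RPS20 and RPS31. An intron splits 36 of the genes, which have 2 exons in the table, while 20 genes have 1 exon. Both copies have an intron in 17 pairs, neither copy in 6 pairs, and of the RPS22 pair the B copy alone has one.

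As background, the small subunit binds the messenger RNA, holds the decoding centre and scans for the start codon. Its proteins are made in equal numbers per ribosome, and growing yeast devotes much of its RNA polymerase II transcription to ribosomal protein genes. In this species the transcription factors Rap1, Fhl1, Ifh1 and Sfp1 act on most of these promoters, and their transcripts are known to fall during heat stress and when growth is limited. Introns are rare among yeast genes but common among ribosomal protein genes.

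The copies of a protein differ in how far their transcripts can be told apart, which the coding sequences of the closest pair and of a clearly separate pair show. The stretches below are bases 82 to 141 of the coding sequences of RPS6 and bases 43 to 102 of those of RPS22, from RefSeq assembly R64, with the bases at which the copies differ in capitals.
RPS6A: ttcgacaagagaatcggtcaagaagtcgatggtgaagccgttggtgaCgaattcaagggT
RPS6B: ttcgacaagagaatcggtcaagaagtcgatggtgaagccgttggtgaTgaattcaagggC
RPS22A: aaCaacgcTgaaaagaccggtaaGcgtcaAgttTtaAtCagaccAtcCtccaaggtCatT
RPS22B: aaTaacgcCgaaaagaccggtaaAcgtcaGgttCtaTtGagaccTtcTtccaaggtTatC
In these stretches the RPS6 copies differ at 2 bases and the RPS22 copies at 11. Over the whole coding sequences the identity of the copies ranged from 84.3% for RPS27 to 99.2% for RPS6, with a median of 92.7%. Reads were 50 bases long, and of all 50-base windows of the A copy 72.7% in RPS6, 47.7% in RPS4 and 38.5% in RPS24 occur elsewhere in the genome as well. In 9 of the 24 pairs, RPS22, RPS26, RPS21 and RPS27 among them, no such window was shared. Over 10% of the windows were shared in 9 pairs, RPS14 among them. The sources used here do not say how the authors placed reads that match both copies, so the separate values of RPS4, RPS6 and RPS24 are uncertain.

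The introns were 256 to 551 bp long with a median of 408.5 bp, and first exons were 3 to 144 bp long. The usual yeast 5′ splice site GTATGT opened 24 of the 36 introns, the branch point sequence TACTAAC lay within 33, and all 36 ended in AG. The RPS14 pair, RPS14A (YCR031C, chrIII:177500-178220) and RPS14B (YJL191W, chrX:73787-74611), is shown because its copies differ at the splice site and the balance between them changed in both mutants. The lines give the first exon in capitals followed by the first bases of the intron, for RPS14A at chrIII:178164-178220 on the minus strand and for RPS14B at chrX:73787-73846 on the plus strand of R64.
RPS14A: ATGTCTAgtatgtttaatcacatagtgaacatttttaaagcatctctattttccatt
RPS14B: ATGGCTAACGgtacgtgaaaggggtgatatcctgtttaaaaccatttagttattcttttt
The RPS14A intron starts with the usual letters, and that of RPS14B starts with gtacgt. In RPS22B (YLR367W, chrXII:856442-857317) the intron holds the gene of the small nucleolar RNA snR44, at chrXII:856710-856920.

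Total RNA was sequenced by strand from 3 strains with 2 libraries each, all isogenic to S288C, grown in rich medium (YPD, 30 °C) until the OD600 reached 0.5 and then kept at 39 °C for 2 h. WT is strain YAN1104 (mat a leu2D1 lys2-128d bar1D::NAT), which also carries FLAG-HHT1 and HHF1 under the PGAL1/10 promoter with URA3 at ura3-52. The ck2ts strain, YAN1105, is labelled with all of these alleles and in addition a deletion of CKA1 (cka1Δ0::KanMX6) and cka2D225N::NAT, the 2 genes being those of the catalytic subunits of casein kinase 2. The spt6-7SA strain, YAN1116, is mat a his3D200 ura3Δ0 leu2D1 lys2-128d with bar1D::KanMX6 and IWS1-13MYC::HIS3, lacks chromosomal SPT6 (spt6D::kanMX6) and carries FLAG-spt6 7S-A on the URA3 CEN plasmid pcc11. Spt6 is a histone chaperone that travels with RNA polymerase II, and the series title ties its phosphorylation by casein kinase 2 to histone dynamics and spurious transcription. By their labels the 3 strains share mat a, lys2-128d, a bar1 deletion and leu2D1, the last of which the LEU2 reads below go against. Besides SPT6, spt6-7SA differs from WT in markers, tag and plasmid, and its label lists no FLAG-HHT1 and HHF1 cassette. WT and ck2ts carry that cassette, and its part in the results was not tested. Every library was shifted to 39 °C, so no unshifted level was measured. Whether the 2 libraries of a strain stem from independent cultures is not stated in the labels, and the p-values therefore reflect library-to-library spread that may be technical.

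Sense reads numbered 56307173 to 83375420 per library. CKA1, deleted in ck2ts, still gave 202 and 100 reads there, against 4970 and 3504 (WT) and 3289 and 3858 (spt6-7SA). LEU2 reads went against the leu2D1 label that all 3 strains carry, with 3713 and 3193 (WT) and 3161 and 3338 (spt6-7SA), while ck2ts had 1 and 4, so that WT and ck2ts also differed at LEU2 and its part in the results was not tested. Transcripts of the mitochondrial chromosome took 0.0362% of the reads of ck2ts replicate 1 and 0.241% to 0.341% of the other 5 libraries. All 56 genes passed the filter on low counts and had the coordinates of the R64 annotation. Levels are given as CPM, counts per 1000000 sense reads scaled by TMM (the trimmed mean of M-values), and are shares of the sequenced RNA. Less of these transcripts per cell and fewer cells making them cannot be told apart in bulk RNA.

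The 56 genes together took fewer reads in both mutants. Their share of all sense reads was 4.45% and 4.20% (WT), 2.11% and 2.18% (ck2ts) and 2.91% and 2.87% (spt6-7SA). The 95% Wilson intervals were, in the same order, 4.44% to 4.45%, 4.20% to 4.21%, 2.10% to 2.11%, 2.18% to 2.19%, 2.91% to 2.92% and 2.86% to 2.87%, and cover counting error only. The groups did not overlap, with WT highest, spt6-7SA between and ck2ts lowest. The mean share in ck2ts was 0.496 times that in WT, and in spt6-7SA 0.668 times. An exact two-sided permutation test gave p = 0.333 for each comparison, the smallest value that 2 against 2 libraries allow. Reads of the 56 genes stood to reads of the 76 large-subunit genes in a ratio of 0.783 and 0.766 (WT), 0.789 and 0.791 (ck2ts) and 0.780 and 0.778 (spt6-7SA).

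Although the proteins are used in equal numbers, their transcript levels in WT, with copies added, ranged from 1637 to 5362 CPM per kb of coding length. The levels of single genes ranged from 443 to 3332 CPM per kb around a median of 1597. The highest were RPS30A at 3298 and 3367 in the 2 libraries, RPS15 at 3295 and 3260.1, RPS31 at 3355 and 2844 and RPS26A at 2857 and 2502. The library values of RPS31 reach into those of RPS30A and span those of RPS15, so the order of these 3 is not resolved. The lowest were RPS9A at 464 and 422, RPS22B at 534 and 508, RPS28B at 548 and 616, RPS7B at 714 and 615 and RPS17B at 798 and 686 CPM per kb. Among these RPS9A lay below all others in both libraries, RPS22B lay below RPS28B in both, and RPS28B, RPS7B and RPS17B overlapped from one to the next. Length matters for the shortest genes: with 49 bases added per exon for reads that only touch it, an alternative chosen after the data were seen, RPS15 ranked first and RPS30A, the shortest coding sequence among the highest, ranked 8. Genes without an intron had a median of 2233 CPM per kb (n = 20) and genes with one a median of 1329 (n = 36). Whether reads that span 2 exons were missed in the latter was not tested. Summed over both copies, the level per kb had a median of 3104 for the 24 duplicated proteins and 2372 for the 8 single-copy proteins. RPS15 was the highest gene per kb in ck2ts and in spt6-7SA, and RPS9A the lowest in both.

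**Figure D1:**
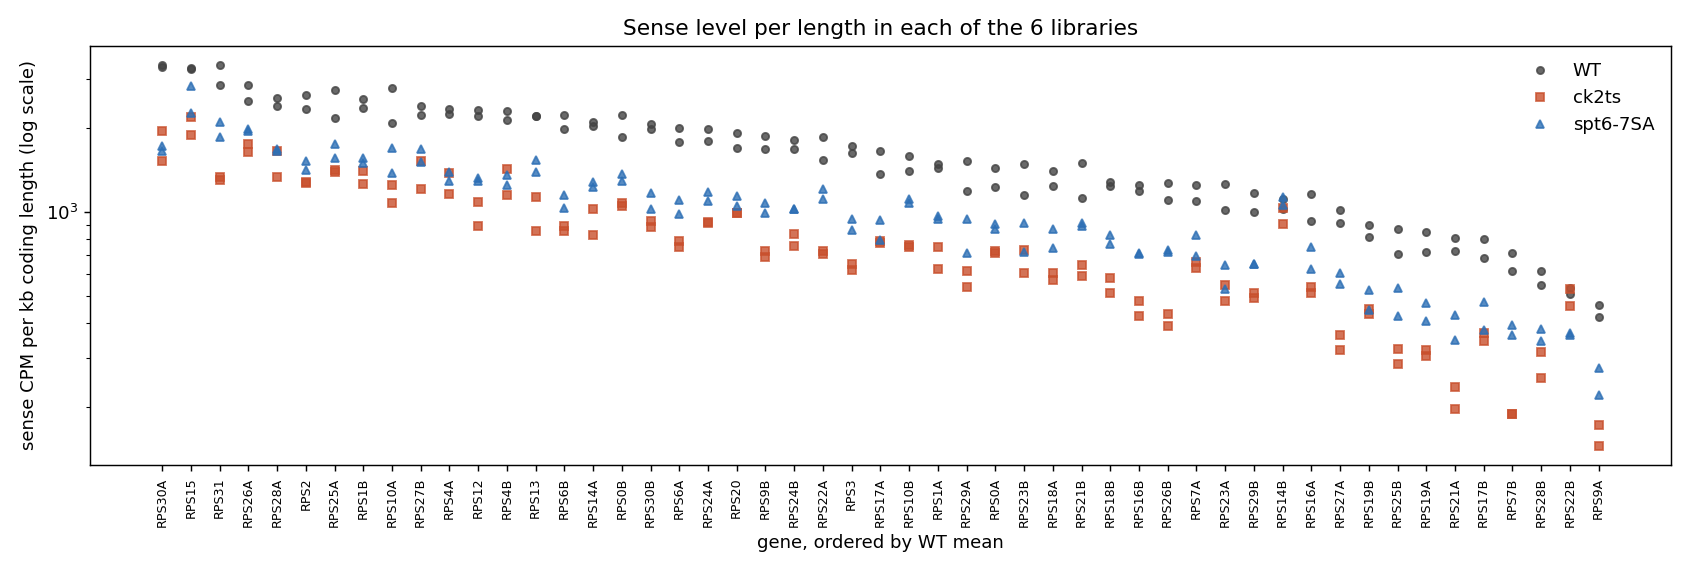
Sense CPM per kb of coding length (log axis) of 51 of the 56 genes in the 6 libraries, ordered by the WT mean, with circles for WT, squares for ck2ts and triangles for spt6-7SA. Nearly all genes sit highest in WT; RPS14B and RPS22B are where the ck2ts squares reach the WT circles.

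In ck2ts, 54 of the 56 genes fell relative to WT and none rose (edgeR quasi-likelihood test, Benjamini-Hochberg adjusted p under 0.05 over all genes). Of all 6776 genes tested 32.4% were called lower and 32.1% higher, and 11.7% were at least 2-fold lower, against 33 of the 56. The median log2 fold change was -1.06 over the 56 genes and 0.02 over all genes tested, and single genes ranged from -1.82 to -0.07. At an unadjusted p under 0.05 there were also 54 falls and 0 rises, and DESeq2 gave 54 and 0. The 2 genes that did not pass, RPS14B and RPS22B, both have an intron and are both B copies. The median change was close in genes with an intron (-1.06, n = 36) and without one (-1.05, n = 20), in single-copy genes (-1.07, n = 8) and in duplicated ones (-1.06, n = 48), and in A copies (-1.06) and B copies (-1.06); these medians are descriptions and their differences were not tested.

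In spt6-7SA, 54 of the 56 genes fell relative to WT and none rose, beside 24.7% of all genes called lower and 25.9% higher. The median log2 fold change was -0.72, against 0.01 over all genes, with a range from -0.98 to 0.03, and none of the 56 was 2-fold lower and called (3.31% of all genes were). Without adjustment 55 fell and 0 rose, and DESeq2 called 55 falls and 0 rises. RPS15 and RPS14B did not pass. Scaling by library totals instead of TMM raised the median of all genes to 0.12 and the median of the 56 to -0.61, with 54 still called lower; over all genes that scaling called 1287 lower and 2162 higher, where TMM gave 1671 and 1756. Leaving out spt6-7SA replicate 2 left 37 calls and leaving out WT replicate 1 left 44, against 49 to 54 without any other library. Both mutants were compared with the same 2 WT libraries.

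**Figure D2:**
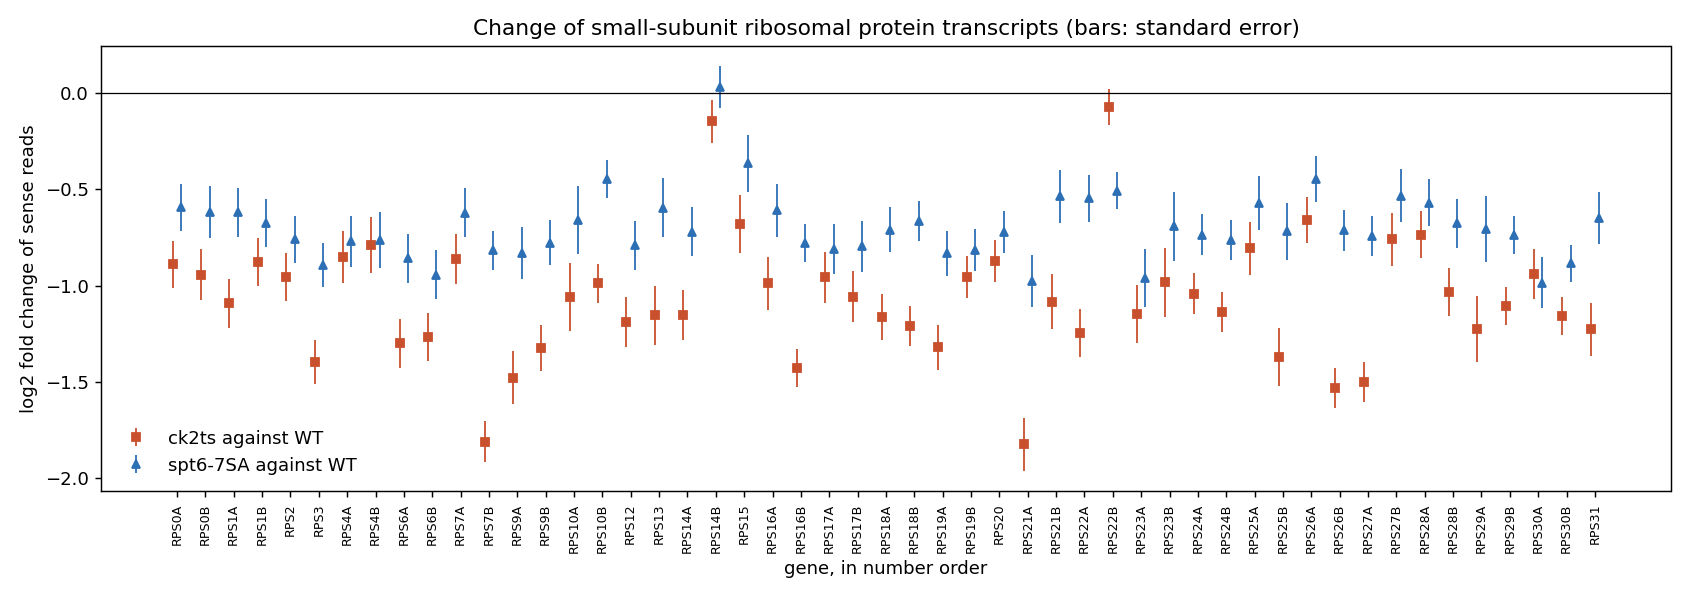
Log2 fold change of sense reads of 51 of the 56 genes in ck2ts (squares) and spt6-7SA (triangles) against WT, in number order, with bars for the standard error. The ck2ts values run from -1.82 to -0.07 and the spt6-7SA values from -0.98 to 0.03; RPS14B lies near 0 in both and RPS22B in ck2ts.

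The single-copy genes, whose reads cannot be shared with a second copy, all fell in ck2ts. RPS2 (YGL123W), at the mRNA entry channel, had 2003 and 1792 CPM (WT), 973 and 984 CPM (ck2ts) and 1162 and 1079 CPM (spt6-7SA). Its log2 fold change was -0.96 (SE 0.12, adjusted p = 0.00038) in ck2ts and -0.76 (SE 0.12, adjusted p = 0.0023) in spt6-7SA, with the 3 strains apart in every library. RPS3 (YNL178W), whose protein also lines the mRNA entry and sits in the head of the subunit, had 1248 and 1175 CPM (WT), 448 and 472 CPM (ck2ts) and 682 and 623 CPM (spt6-7SA). It fell by the most of the 8 in both mutants, with -1.40 (SE 0.12, adjusted p = 4.7e-05) in ck2ts and -0.89 (SE 0.12, adjusted p = 0.00099) in spt6-7SA.

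RPS12 (YOR369C), a protein of the subunit's beak, had 952 and 1004 CPM (WT), 386 and 471 CPM (ck2ts) and 574 and 557 CPM (spt6-7SA). Its changes were -1.19 (SE 0.13, adjusted p = 0.00015) in ck2ts and -0.79 (SE 0.13, adjusted p = 0.0023) in spt6-7SA. RPS13 (YDR064W), of the subunit's body, had 1005 and 1010.5 CPM (WT), 390.0 and 515 CPM (ck2ts) and 635 and 700.3 CPM (spt6-7SA), with the 2 WT libraries almost equal and the ck2ts libraries wider apart. It changed by -1.15 (SE 0.15, adjusted p = 0.00041) and -0.59 (SE 0.15, adjusted p = 0.015). RPS20 (YHL015W), a protein of the subunit's head, had 703 and 623 CPM (WT), 362 and 363 CPM (ck2ts) and 419.7 and 384 CPM (spt6-7SA), the ck2ts libraries being equal to within 1 CPM. The changes of RPS20 were -0.87 (SE 0.11, adjusted p = 0.00030) and -0.72 (SE 0.11, adjusted p = 0.0017). RPS31 encodes a fusion of ubiquitin with the ribosomal protein, and had 1539.9 and 1305 CPM (WT), 615 and 599.8 CPM (ck2ts) and 963 and 851 CPM (spt6-7SA). It changed by -1.23 (SE 0.14, adjusted p = 0.00016) and -0.65 (SE 0.13, adjusted p = 0.0063), with all 3 strains apart.

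RPS15, which takes part in export of the pre-subunit from the nucleus and lies near the decoding site, changed least among the 8. It had 1413 and 1399 CPM (WT), 813 and 944 CPM (ck2ts) and 971 and 1212 CPM (spt6-7SA). Both mutants lay below both WT libraries, but the spt6-7SA libraries lay further apart than the lower of them lay from the higher ck2ts library. RPS15 fell in ck2ts, with -0.68 (SE 0.15, adjusted p = 0.0053), and the value in spt6-7SA, -0.36 (SE 0.15, adjusted p = 0.078), did not pass. DESeq2 did call it in spt6-7SA, at a log2 fold change of -0.38 with an adjusted p of 0.023.

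The largest falls in ck2ts were in duplicated genes. RPS21A (YKR057W), whose product contacts Rps0, had 213 and 191 CPM (WT), 62.2 and 52.0 CPM (ck2ts) and 113 and 92.3 CPM (spt6-7SA), and it fell by the most in ck2ts, -1.82 (SE 0.14, adjusted p = 3.3e-05), and changed by -0.98 (SE 0.14, adjusted p = 0.0013) in spt6-7SA. RPS7B (YNL096C), one of the 2 genes of a protein that is known to be ubiquitinated in yeast, had 409 and 352 CPM (WT), 109 and 108 CPM (ck2ts) and 225 and 208 CPM (spt6-7SA). Both ck2ts libraries lay well below both spt6-7SA libraries, with a change of -1.81 (SE 0.10, adjusted p = 1.5e-05), and in spt6-7SA the change was -0.82 (SE 0.10, adjusted p = 0.00088). RPS26B encodes a protein at the mRNA exit that the chaperone Tsr2 delivers. Its levels were 459 and 397 CPM (WT), 141 and 155 CPM (ck2ts) and 263 and 259 CPM (spt6-7SA), with changes of -1.53 (SE 0.11, adjusted p = 2.3e-05) and -0.71 (SE 0.10, adjusted p = 0.0016).

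RPS27A (YKL156W), a zinc finger protein gene, had 254 and 228 CPM (WT), 80.0 and 90.1 CPM (ck2ts) and 138 and 150.1 CPM (spt6-7SA), and changed by -1.50 (SE 0.10, adjusted p = 2.3e-05) in ck2ts and -0.74 (SE 0.10, adjusted p = 0.0013) in spt6-7SA. RPS9A (YPL081W), the minor copy of a gene whose protein affects the accuracy of decoding, had 276 and 251 CPM (WT), 103 and 86.3 CPM (ck2ts) and 164 and 131 CPM (spt6-7SA). It changed by -1.48 (SE 0.14, adjusted p = 8.0e-05) and -0.83 (SE 0.14, adjusted p = 0.0024). RPS16B (YDL083C), of a protein whose tail reaches the P site, had 538 and 515 CPM (WT), 184 and 208 CPM (ck2ts) and 308 and 306 CPM (spt6-7SA), with changes of -1.43 (SE 0.10, adjusted p = 2.4e-05) and -0.78 (SE 0.10, adjusted p = 0.00094). In all 6 of these genes the strains fell into the same order, WT above spt6-7SA above ck2ts, with no overlap between libraries. The 6 were chosen by their low ck2ts values, and the order is not particular to them. Of all 56 genes, both ck2ts libraries lay below both WT libraries in 54, and both spt6-7SA libraries lay above both ck2ts libraries in 48.

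At the other end, RPS14B and RPS22B overlapped with WT in ck2ts, the only 2 of the 56 to do so; 40.6% of all genes tested were lower in both ck2ts libraries and 40.7% higher. RPS14B (YJL191W), whose pre-mRNA is known in yeast to be bound by the Rps14 protein, had 429.6 and 465 CPM (WT), 377 and 431 CPM (ck2ts) and 443 and 471 CPM (spt6-7SA). The higher ck2ts library exceeded the lower WT library and the lower spt6-7SA library lay between the WT libraries, with changes of -0.15 (SE 0.11, adjusted p = 0.27) and 0.03 (SE 0.11, adjusted p = 0.83). RPS22B (YLR367W), whose pre-mRNA is known to be cleaved in its intron by the RNase III enzyme Rnt1, had 209.9 and 199.7 CPM (WT), 181 and 208 CPM (ck2ts) and 143 and 145 CPM (spt6-7SA). In ck2ts 1 library lay below and the other between the WT values, while both spt6-7SA libraries lay below all others. The change of RPS22B was -0.07 (SE 0.09, adjusted p = 0.53) in ck2ts and -0.51 (SE 0.10, adjusted p = 0.0041) in spt6-7SA. snR44, which lies inside the RPS22B intron, had 51.4 and 54.3 CPM (WT), 47.1 and 55.9 CPM (ck2ts) and 38.7 and 38.1 CPM (spt6-7SA), and its changes were -0.04 (SE 0.10, adjusted p = 0.76) and -0.46 (SE 0.10, adjusted p = 0.0080). The snR44 reads are not part of the RPS22B counts, which cover its exons, and no intron reads were counted for the 56 genes.

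The next smallest falls in ck2ts included RPS26A and RPS28A, and both passed. RPS26A (YGL189C), the major copy of its pair, had 1029 and 901 CPM (WT), 589 and 631 CPM (ck2ts) and 714 and 704 CPM (spt6-7SA), and changed by -0.66 (SE 0.12, adjusted p = 0.0019) in ck2ts and -0.44 (SE 0.12, adjusted p = 0.018) in spt6-7SA. RPS28A (YOR167C) had 522 and 491 CPM (WT), 272 and 338 CPM (ck2ts) and 339 and 344 CPM (spt6-7SA), and changed by -0.73 (SE 0.12, adjusted p = 0.0013) and -0.57 (SE 0.12, adjusted p = 0.0072). For both genes the mutants lay below WT in every library, and for RPS28A the mutants came close to each other.

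In spt6-7SA the largest falls were in RPS30A, RPS21A, RPS23A, RPS6B, RPS3 and RPS30B. RPS30A (YLR287C-A), the A copy of the gene whose mammalian counterpart is made as a fusion with a ubiquitin-like protein, had 633 and 646 CPM (WT), 293 and 375 CPM (ck2ts) and 317 and 330.0 CPM (spt6-7SA). Its changes were -0.98 (SE 0.13, adjusted p = 0.0011) in spt6-7SA and -0.94 (SE 0.13, adjusted p = 0.00052) in ck2ts, and the libraries of the 2 mutants overlapped. RPS23A (YGR118W), of the decoding centre, had 555 and 446 CPM (WT), 241 and 211 CPM (ck2ts) and 283 and 232 CPM (spt6-7SA), with changes of -0.96 (SE 0.15, adjusted p = 0.0020) in spt6-7SA and -1.15 (SE 0.15, adjusted p = 0.00038) in ck2ts. RPS6B (YBR181C), of the protein that is phosphorylated at its end by growth-responsive kinases, had 1582 and 1407 CPM (WT), 606 and 636 CPM (ck2ts) and 817 and 738 CPM (spt6-7SA). It changed by -0.94 (SE 0.13, adjusted p = 0.0011) and -1.27 (SE 0.13, adjusted p = 0.00010), a value shared with RPS6A as far as their reads are shared. RPS30B (YOR182C) had 397 and 383 CPM (WT), 170.1 and 179 CPM (ck2ts) and 225 and 198 CPM (spt6-7SA), with changes of -0.88 (SE 0.10, adjusted p = 0.00056) and -1.16 (SE 0.10, adjusted p = 4.8e-05).

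After RPS14B and RPS15, the smallest changes in spt6-7SA were those of RPS26A, RPS10B, RPS22B and RPS27B. RPS10B (YMR230W) had 506 and 446 CPM (WT), 242 and 238 CPM (ck2ts) and 355 and 343 CPM (spt6-7SA), and changed by -0.45 (SE 0.10, adjusted p = 0.0083) in spt6-7SA and -0.99 (SE 0.10, adjusted p = 0.00011) in ck2ts. RPS27B (YHR021C) had 554 and 598 CPM (WT), 301 and 380.3 CPM (ck2ts) and 419.6 and 377 CPM (spt6-7SA), and changed by -0.53 (SE 0.14, adjusted p = 0.015) and -0.76 (SE 0.14, adjusted p = 0.0019). Both had every mutant library below WT.

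The size of the change was set beside the WT level. Across the 56 genes Pearson's r between the log2 CPM per kb in WT and the log2 fold change was 0.23 in ck2ts and 0.07 in spt6-7SA, and Spearman's rho 0.35 and 0.14. WT values enter both measures, the points share the same libraries, and genes are not independent replicates. With coding length, r was 0.02 and -0.12.

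When the counts of both copies were added, all 32 proteins fell in ck2ts and 31 in spt6-7SA. The sums ranged from -1.40 for RPS3 to -0.68 for RPS15 in ck2ts, a narrower span than that of the single genes, with a standard deviation of 0.18 over 32 proteins against 0.31 over 56 genes. RPS14A and RPS14B together changed by -0.73 in ck2ts. In spt6-7SA the sums ranged from -0.95 for RPS30 to -0.37 for RPS15, which was again the one that did not pass.

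Between the mutants, 28 of the 56 genes were higher in spt6-7SA than in ck2ts, 1 was lower and 27 did not pass, with a median log2 fold change of 0.34. Of all genes 27.2% were called higher and 25.1% lower. RPS7B differed most, by 0.99 (SE 0.10, adjusted p = 0.00026), followed by RPS21A with 0.85 (SE 0.14, adjusted p = 0.0017) and RPS26B with 0.82 (SE 0.10, adjusted p = 0.00063). RPS22B was the gene lower in spt6-7SA, at -0.43 (SE 0.10, adjusted p = 0.0071), a call that was lost without spt6-7SA replicate 1 (adjusted p = 0.058), while its copy RPS22A was higher by 0.70 (SE 0.12, adjusted p = 0.0025). For RPS14B the value, 0.18 (SE 0.11, adjusted p = 0.21), did not pass. This comparison leaned on single libraries: without spt6-7SA replicate 1 there were 10 calls, without ck2ts replicate 1 there were 16 and without spt6-7SA replicate 2 there were 19, and scaling by library totals gave 44 calls.

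The balance between the copies was tested directly, as the change of the ratio of A to B within each library. The test covered all 61 pairs of the genome whose names differ in a final A or B. The 24 pairs are among these 61, so shares over the 61 are not a separate background. In WT the A copy supplied from 20.1% of the pair's reads in RPS9 to 81.0% in RPS28. In ck2ts the ratio changed in 11 of the 24 pairs (45.9% of the 61 were called), toward the B copy in 7 (27.9% of the 61) and toward the A copy in 4 (18.0%). In spt6-7SA it changed in 2 of the 24 (9.84% of the 61). The ratio also differed between the mutants in 9 of the 24 pairs (32.8% of the 61).

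In RPS22 the A copy supplied 77.7% and 75.2% (WT), 60.5% and 57.9% (ck2ts) and 76.9% and 75.1% (spt6-7SA). The log2 ratio of A to B changed by -1.16 (SE 0.12, adjusted p = 2.3e-05) in ck2ts, the largest change toward a B copy, and by -0.03 (SE 0.11, adjusted p = 0.91) in spt6-7SA, where it did not pass. The mutants differed by 1.13 (SE 0.12, adjusted p = 0.00015). In RPS14 the A copy supplied 66.2% and 65.2% (WT), 47.7% and 49.7% (ck2ts) and 54.4% and 52.0% (spt6-7SA). Here the ratio changed in both mutants, by -1.01 (SE 0.09, adjusted p = 1.4e-05) and -0.75 (SE 0.09, adjusted p = 0.00057), with no overlap with WT in either.

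RPS7 and RPS26 moved the other way. In RPS7 the A copy supplied 63.7% and 64.01% (WT), 77.7% and 76.9% (ck2ts) and 67.9% and 65.8% (spt6-7SA), and the ratio changed by 0.95 (SE 0.09, adjusted p = 2.0e-05) in ck2ts. The change of RPS7 in spt6-7SA was 0.19 (SE 0.09, adjusted p = 0.23) and did not pass, and the mutants differed by -0.76 (SE 0.09, adjusted p = 0.00021). In RPS26 the A copy supplied 69.2% and 69.4% (WT), 80.7% and 80.2% (ck2ts) and 73.1% and 73.1% (spt6-7SA), with changes of 0.87 (SE 0.07, adjusted p = 1.2e-05) in ck2ts and 0.27 (SE 0.07, adjusted p = 0.050) in spt6-7SA. RPS26 was the only pair besides RPS14 that passed in spt6-7SA, and its call was lost without any 1 of the 4 WT and spt6-7SA libraries (adjusted p 0.080 to 0.23). The mutants differed in RPS26 by -0.60 (SE 0.07, adjusted p = 0.00021).

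**Figure D3:**
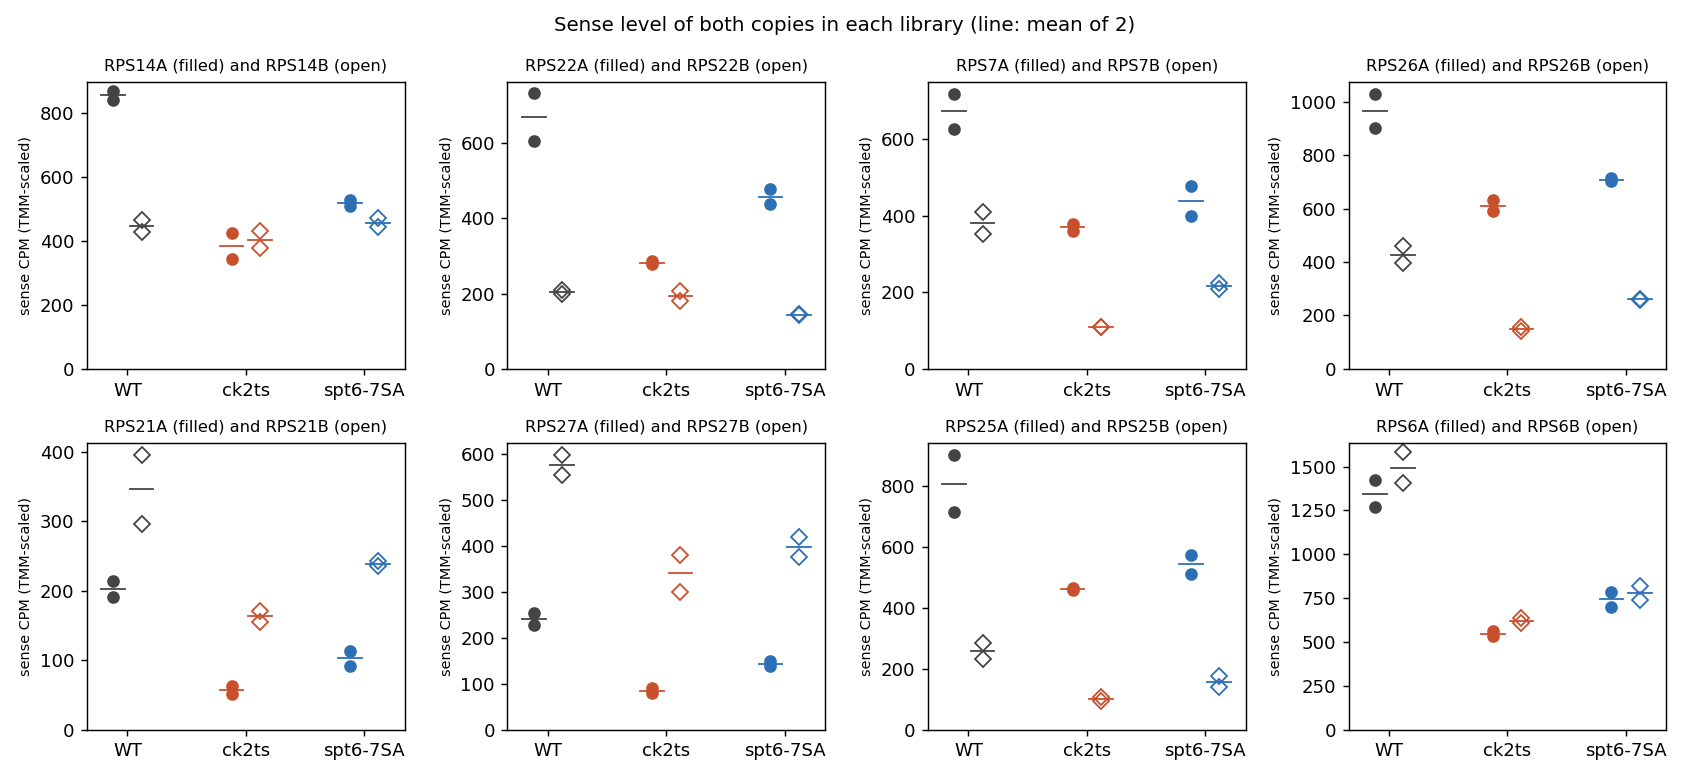
Sense CPM of the A copy (filled circles) and the B copy (open diamonds) of 8 pairs in each library of WT, ck2ts and spt6-7SA, with lines at the mean of 2 libraries. In RPS14 and RPS22 the B copy stays near its WT level in ck2ts while the A copy drops; in RPS7, RPS26 and RPS25 the B copy drops further than the A copy.

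RPS21 and RPS27 shifted toward the B copy, which is the major one in both. In RPS21 the A copy supplied 35.0% and 39.2% (WT), 26.7% and 25.1% (ck2ts) and 31.9% and 28.2% (spt6-7SA), a change of -0.76 (SE 0.15, adjusted p = 0.0020) in ck2ts and of -0.46 (SE 0.15, adjusted p = 0.061) in spt6-7SA, the latter not passing. In RPS27 it supplied 31.4% and 27.6% (WT), 21.0% and 19.2% (ck2ts) and 24.7% and 28.5% (spt6-7SA), a change of -0.73 (SE 0.14, adjusted p = 0.0015) in ck2ts and -0.21 (SE 0.14, adjusted p = 0.39) in spt6-7SA. The other pairs called in ck2ts included RPS25 at 0.57 and RPS16 at 0.45 toward A, and RPS19 at -0.36 and RPS1 at -0.22 toward B. The RPS16 call was lost without WT replicate 2, without ck2ts replicate 1 and with limma (adjusted p 0.074 to 0.18), and the RPS19 call without WT replicate 1 or either ck2ts library (0.096 to 0.12). In spt6-7SA the 6 largest values also included RPS23 at -0.27 (SE 0.09, adjusted p = 0.061) and RPS10 at -0.21 (SE 0.13, adjusted p = 0.39), and neither passed. With the replicate number as a block both passed, RPS23 with an adjusted p of 0.015 and RPS10 with 0.034, and RPS21 passed without spt6-7SA replicate 1 (adjusted p = 0.018).

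Calls were set beside the shared sequence. Of the 9 pairs with over 10% of windows shared, 3 were called in ck2ts and the median size of the change was 0.16, and of the 9 pairs with no shared window 5 were called and the median size was 0.57. RPS6, RPS4 and RPS24, which are among the pairs with the most shared windows, were not called in either mutant against WT, and whether shared reads hide a change there was not tested.

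**Figure D4:**
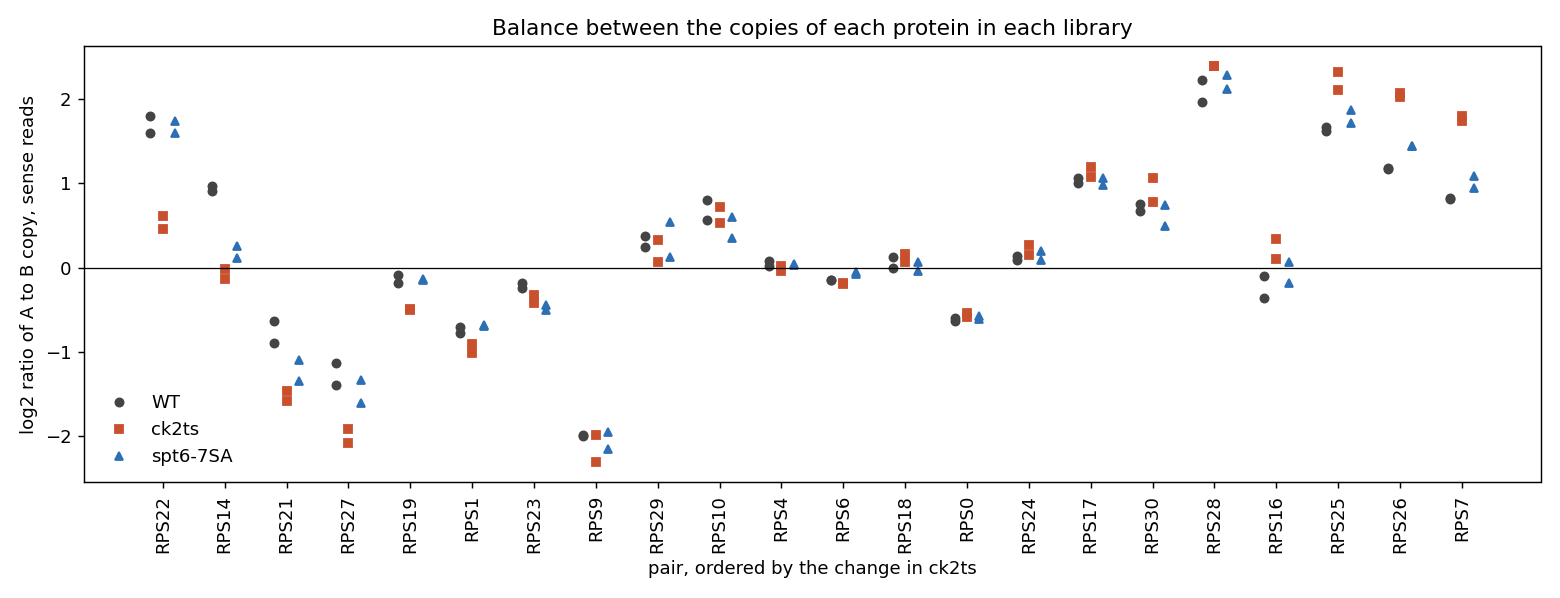
Log2 ratio of the A to the B copy in each library for 22 of the 24 pairs, ordered by the change in ck2ts, with circles for WT, squares for ck2ts and triangles for spt6-7SA. The squares lie below the circles for RPS22 and RPS14 at the left and above them for RPS26 and RPS7 at the right; the triangles follow the squares in RPS14.

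Within the genes that have an intron, the first exon was compared with the second in 34 of 36 genes with enough reads. In 23 genes the first exon is shorter than 25 bp, and a small part of the reads falls on it. Length alone does not set this part. In WT the 47 bp first exon of RPS18A held 0.722% and 0.658% of its reads, and the 52 bp one of RPS10A 8.82% and 8.60%. How reads that span both exons were counted was not tested, so the ratios may not be those of spliced mRNA. Only RPS27A was called in ck2ts (5.1% of 294 genes with 2 exons were called), with 17 and 15 reads on its 3 bp first exon in WT and 18 and 22 in ck2ts. These are 0.0839% and 0.114% of its reads in WT against 0.347% and 0.452% in ck2ts, a log2 change of 2.03 (SE 0.34, adjusted p = 0.039), which did not pass with any 1 library of WT or ck2ts left out. RPS17A, also with a 3 bp first exon, had the largest value, 2.08 (adjusted p = 0.062), and did not pass. The next were RPS21B at -0.94, RPS18A at -0.81 and RPS6A at 0.63, with adjusted p values of 0.49, 0.69 and 0.45. In spt6-7SA none of the 34 was called by edgeR (0.34% of the 294) or limma, with 4 at an unadjusted p under 0.05 by edgeR, and the 5 largest values were those of RPS21B, RPS9B, RPS13, RPS21A and RPS19B, from -1.73 to 1.22.

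The promoters were read for 4 motifs in the 500 bases before the start codon, on both strands, and the matches describe letters and not binding. The Rap1 motif ACCCNNACA was found for 18 of the 56 genes (32.1%) and in 5.48% of 5986 such windows of the genome. The Abf1 motif, TCA and ACG with 6 bases between them, was found in 21.4% of the 56 and 22.7% of all, AAAAATTT (the RRPE element) in 21.4% and 20.5%, and GATGAG (the PAC element) in 21.4% and 28.3%. The window of RPS16B is shown because it holds a pair of Rap1 matches and that of RPS28B because it holds an Abf1 match, in capitals, given 5′ to 3′ on the strand of the gene from R64, at chrIV:308130-308229 (minus strand) and chrXII:672901-673000 (plus).
RPS16B: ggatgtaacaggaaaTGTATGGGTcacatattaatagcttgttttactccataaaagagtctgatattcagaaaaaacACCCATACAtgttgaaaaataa
RPS28B: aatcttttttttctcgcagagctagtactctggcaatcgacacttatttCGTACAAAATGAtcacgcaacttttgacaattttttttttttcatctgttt
RPS16B was among the largest falls in ck2ts. RPS21A, RPS7B, RPS26B, RPS27A and RPS9A, which fell by more, had no Rap1 match. Its copy RPS16A also had 2 matches and fell by less. No link between matches and changes was tested.

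Antisense reads, from the strand opposite to the gene, were few for these genes. They made 0.0387% and 0.0940% (WT), 0.0927% and 0.0587% (ck2ts) and 0.0585% and 0.0726% (spt6-7SA) of the reads of the 56 genes, against 4.44% to 4.94% over all genes. The strains overlapped in this share. Whether sense reads assigned to the wrong strand add to these antisense counts was not tested. The median count per gene was 23 and 38.5 reads (WT), 15.5 and 8 (ck2ts) and 16 and 21 (spt6-7SA), so that many values rest on a handful of reads. Once scaled by depth, WT replicate 2 lay above WT replicate 1 in 55 of the 56 genes. RPS2 and RPS27A overlap a gene on the other strand, whose sense reads can fall in their antisense count.

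Of the 53 genes with enough antisense reads to test, 24 fell in ck2ts and 4 rose, beside 14.0% of all 6558 genes called lower and 48.2% called higher. The median log2 fold change was -1.16 for the 53 genes and 0.62 over all genes. Without WT replicate 2 there were 10 falls and 5 rises, without ck2ts replicate 2 there were 15 and 4, and without WT replicate 1 there were 32 falls and 0 rises. In spt6-7SA 7 fell and none rose (10.8% of all genes were called lower and 30.9% higher), with medians of -0.82 and 0.29; unadjusted, 14 fell and 0 rose, and DESeq2 called 4 falls and 0 rises. Without WT replicate 2, or without spt6-7SA replicate 1, no gene was called in spt6-7SA, without spt6-7SA replicate 2 there were 3 falls, and without WT replicate 1 there were 26. Scaling by antisense totals lowered the median of all genes in ck2ts to 0.07 and turned the split in ck2ts into 35 falls and 0 rises. Over all 6568 genes tested on that scale, 1822 were called lower in ck2ts and 2203 higher. In spt6-7SA the split became 23 falls and 0 rises, beside 1324 genes lower and 1509 higher over all. The number of calls and the 4 rises thus depend on the scaling and on single libraries.

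**Figure D5:**
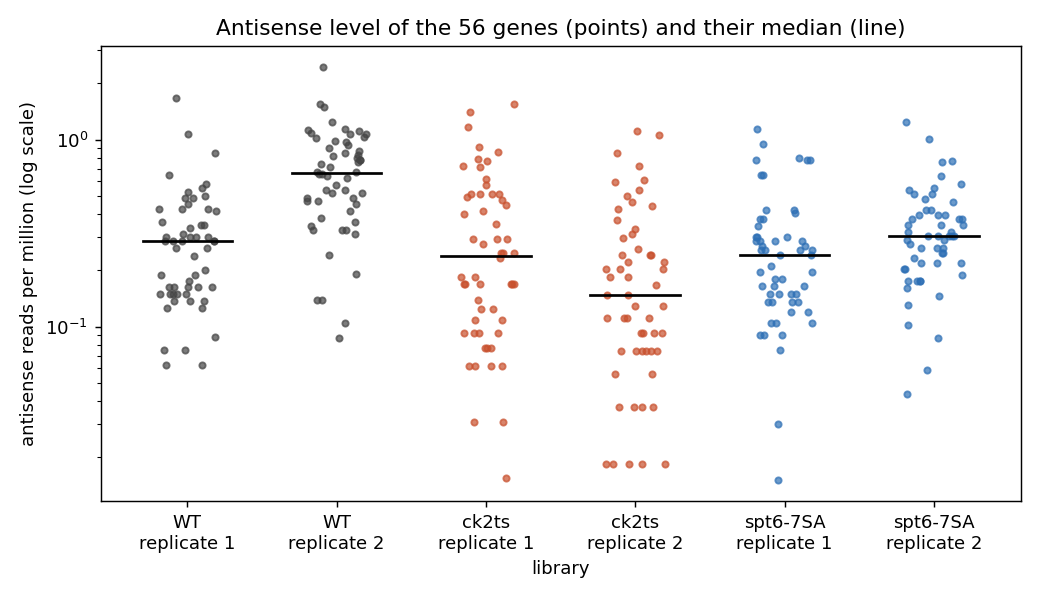
Antisense CPM, on the sense library sizes scaled by TMM (log axis), of the 56 genes in each of the 6 libraries, with the median as a line. WT replicate 2 lies above WT replicate 1, and each library of ck2ts and spt6-7SA reaches below the lowest WT value.

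The largest antisense fall in ck2ts was that of RPS20, with 19 and 54 (WT), 2 and 2 (ck2ts) and 9 and 21 (spt6-7SA) reads and a log2 fold change of -4.00 (SE 0.82, adjusted p = 0.00060). RPS19B had 11 and 31 (WT), 2 and 1 (ck2ts) and 19 and 27 (spt6-7SA) reads and changed by -3.59 (SE 0.85, adjusted p = 0.0018). In both genes no ck2ts library had more than 2 antisense reads. RPS10A had 34 and 72 (WT), 7 and 6 (ck2ts) and 7 and 21 (spt6-7SA) and changed by -2.88 (SE 0.62, adjusted p = 0.00083) in ck2ts and -1.98 (SE 0.55, adjusted p = 0.0092) in spt6-7SA. RPS1A had 24 and 50 (WT), 6 and 4 (ck2ts) and 14 and 17 (spt6-7SA) and changed by -2.73 (SE 0.60, adjusted p = 0.0010) and -1.31 (SE 0.50, adjusted p = 0.049). The mutants lay below both WT libraries in RPS10A and RPS1A.

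The other falls in ck2ts were smaller. RPS2, with the most antisense reads of the 56 in WT, had 133 and 142 (WT), 59 and 33 (ck2ts) and 76 and 85 (spt6-7SA), with changes of -1.42 (SE 0.29, adjusted p = 0.00056) and -0.78 (SE 0.27, adjusted p = 0.032), and it is 1 of the 2 that overlap an opposite gene. RPS6B had 44 and 90 (WT), 33 and 11 (ck2ts) and 17 and 35 (spt6-7SA), with changes of -1.50 (SE 0.53, adjusted p = 0.023) and -1.43 (SE 0.52, adjusted p = 0.039), and RPS6A had 34 and 86 (WT), 29 and 7 (ck2ts) and 13 and 27 (spt6-7SA), with a change of -1.65 (SE 0.66, adjusted p = 0.048) in ck2ts. In RPS6B the WT libraries lay further apart than the lower of them lay from the higher ck2ts library. In RPS6A WT and ck2ts overlapped once scaled by depth, with ck2ts replicate 1 above WT replicate 1. RPS14B, whose 3′ end faces that of RPS22A at a distance of 298 bp, had 68 and 56 (WT), 33 and 27 (ck2ts) and 53 and 69 (spt6-7SA) antisense reads, and it changed by -0.84 (SE 0.31, adjusted p = 0.029) in ck2ts. Further falls in ck2ts included those of RPS21A, at -2.55, and RPS24B, at -1.19. In spt6-7SA RPS26A, with 42 and 47 (WT), 46 and 24 (ck2ts) and 19 and 22 (spt6-7SA) reads, changed by -1.12 (SE 0.39, adjusted p = 0.031).

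The 4 genes with more antisense reads in ck2ts were RPS19A, RPS9A, RPS28A and RPS29A. RPS19A had 15 and 14 (WT), 37 and 29 (ck2ts) and 20 and 24 (spt6-7SA) and changed by 1.37 (SE 0.41, adjusted p = 0.0082), and RPS9A had 39 and 33 (WT), 76 and 57 (ck2ts) and 52 and 40 (spt6-7SA) and changed by 1.08 (SE 0.31, adjusted p = 0.0070). RPS28A had 46 and 37 (WT), 101 and 46 (ck2ts) and 52 and 37 (spt6-7SA) and changed by 1.00 (SE 0.34, adjusted p = 0.020), and RPS29A had 28 and 27 (WT), 56 and 39 (ck2ts) and 13 and 21 (spt6-7SA) and changed by 0.97 (SE 0.36, adjusted p = 0.030). In all 4 both ck2ts libraries lay above WT once scaled by depth, and none of the 4 passed when antisense totals set the scale. RPS26B, another of the 6 genes with the highest antisense level free of such an overlap, had 86 and 64 (WT), 91 and 60 (ck2ts) and 63 and 52 (spt6-7SA). Scaled by depth these were 1.08 and 1.11 CPM (WT) and 1.40 and 1.11 CPM (ck2ts), so that both ck2ts libraries lay above WT but the lower of them only just, and the change of 0.21 (SE 0.27, adjusted p = 0.52) did not pass.

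Relative to the sense strand of the same gene, antisense reads rose in ck2ts in 9 of 53 genes and fell in 4, where over all genes 45.2% rose and 16.3% fell. The 9 were RPS19A (2.70), RPS9A (2.56), RPS7B (2.24), RPS29A (2.19), RPS16B (1.85), RPS26B (1.73), RPS28A (1.70), RPS25B (1.63) and RPS23A (1.41), all as changes of the log2 ratio. Those that fell included RPS20 (-2.98) and RPS19B (-2.55). In spt6-7SA the ratio rose in 4 genes and fell in none (27.5% and 13.9% over all genes): RPS19A by 1.45 (SE 0.46, adjusted p = 0.019), RPS7B by 1.44 (SE 0.52, adjusted p = 0.035), RPS28B by 1.34 (SE 0.50, adjusted p = 0.040) and RPS9A by 1.20 (SE 0.36, adjusted p = 0.014). No gene had a fall at an unadjusted p under 0.05 in that comparison. Over the 53 genes the median change of the log2 ratio was -0.08 in ck2ts and -0.01 in spt6-7SA, against 0.67 and 0.27 over all genes. With antisense totals as the scale, 8 genes fell and 7 rose in ck2ts, and in spt6-7SA 3 rose. Over all 6387 genes, 1697 fell and 2134 rose in ck2ts on that scale, and 1354 fell and 1430 rose in spt6-7SA. The medians of the 53 genes on that scale were -0.67 and -0.30, against 0.12 and -0.01 over all genes. These calls leaned on single libraries. In ck2ts no fall was called without WT replicate 2 (13 rises) or without ck2ts replicate 2 (11 rises), 1 fall and 5 rises were called without ck2ts replicate 1, and 10 falls and 7 rises without WT replicate 1. In spt6-7SA no gene was called without either of its 2 libraries, 7 rose without WT replicate 2, and 3 fell and 1 rose without WT replicate 1.

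Genes that work with the small subunit were counted beside the 56, and their counts are set against all genes, of which 32.4% fell and 32.1% rose in ck2ts, against 24.7% and 25.9% for spt6-7SA. Of the 76 large-subunit ribosomal protein genes 74 fell in ck2ts and 72 in spt6-7SA, with none rising and medians of -1.06 and -0.69. The largest calls included RPL9A, which had 650.0 and 559 CPM (WT), 201 and 199 CPM (ck2ts) and 399 and 359 CPM (spt6-7SA) and changed by -1.60 (SE 0.11, adjusted p = 2.6e-05) in ck2ts. RPL27B changed by -1.59 and RPL22B by -1.20 in ck2ts. Genes for small-subunit assembly and for chaperones of its proteins fell in 17 of 17 in ck2ts, with a median of -1.21, and in 15 of 17 in spt6-7SA, with a median of -0.45. Among them DIM1, which methylates the 18S ribosomal RNA, changed by -1.64 and -0.35, NOB1, the nuclease that makes its 3′ end, by -1.56 and -0.62, and KRR1 by -1.43 and -0.30.

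Proteins that bind the finished subunit fell as well, in 11 of 11 genes in each mutant, with medians of -1.08 and -0.46. The translation initiation factor 3 genes PRT1, RPG1 and TIF34 changed by -1.30, -1.16 and -1.13 in ck2ts. The 16 regulators of ribosomal protein genes went both ways, with 5 rising and 7 falling in ck2ts and 3 and 6 in spt6-7SA, with a rising share no higher than that of all genes in either mutant. YAK1, a kinase that restrains growth, rose by 1.83 and 0.73, and GCR1, an activator that acts with Rap1, rose by 1.28 and 0.54. HMO1, which binds many of these promoters, fell, with -1.34 and -0.73. Of the 32 genes of the mitochondrial small subunit, 1 rose and 6 fell in ck2ts and 1 rose and 7 fell in spt6-7SA, with medians of 0.04 and -0.07, and each of these shares lay below that of all genes. MRPS16, MRPS35 and SWS2 had the smallest p values of that list in ck2ts, with -0.76, -0.48 and -0.40.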

How the data were processed

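The authors sequenced ribosomal-RNA-depleted total RNA as stranded 50 bp single-end reads from 6 libraries, per the labels' protocols. The submitters' processing notes name Trimmomatic, BWA, SAMtools and build R64, with no versions. The authors deposited whole-number counts of reads for each exon on each strand, and the sources used here do not say how reads that match several places were assigned. The 7553 exons were summed to 7126 genes. All 6 libraries entered each fit with edgeR 4.0.16 in R 4.3.3 (robust quasi-likelihood, TMM, filterByExpr with a minimum count of 10, Benjamini-Hochberg over all genes at 0.05), and a standard error is the log2 fold change divided by the root of F. For antisense counts the sense library sizes and factors set the scale. The strands against each other, the A against the B copy and the first against the second exon were tested as interactions with group in the same tool, with library as a term and, for copies and exons, a minimum of 10 reads. Alternatives used DESeq2 1.42.0 and limma 3.58.1; the exact permutation test used scipy 1.17.1. The deposited 3′ against 5′ counts, whose extent along a gene is not given in the sources used here, were compared in the same way and called 0 of the 56 genes by edgeR in each comparison (1, 11 and 7 at an unadjusted p under 0.05 for ck2ts, spt6-7SA and between the mutants). The tests were checked on simulated data. Sequences are from RefSeq R64. The genes, lists and tests were chosen with earlier results of these data known. Members named with values were the 6 with the largest and smallest changes per mutant, the 5 highest and lowest levels, every single-copy gene, the 6 pairs and 5 exon ratios that moved most, and the 6 highest and the called antisense genes. As an exception, library values are given for only some of the called antisense genes, and the values of a few members are not reported here. Of each other list the 3 with the smallest p in ck2ts were named. NEP1 of the assembly list matched no gene name.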

Additional observations from a re-analysis of the deposited data

How the results depend on the processing

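The counts of falling genes in ck2ts were 54 under every scaling, filter and left-out library, and in spt6-7SA left-out libraries gave 37 to 54. With copies summed they were 32, 31 and 15 of 32 proteins for ck2ts and spt6-7SA against WT and for spt6-7SA against ck2ts. Between the mutants, library totals gave 44 calls, with 1340 genes lower and 2295 higher over the genome against 1698 and 1840 by TMM, and left-out libraries gave 10 to 29. In antisense reads, left-out libraries gave 15 to 32 calls in ck2ts, 0 to 26 in spt6-7SA and 3 to 12 between the mutants, where 8 were called; in spt6-7SA antisense totals gave 23 and DESeq2 4. Between the mutants the 8 calls were 2 lower and 6 higher, beside 2145 of 6558 genes lower and 982 higher over all. That split turned the other way without ck2ts replicate 2, where the median change of the members was 0.22 against 0.34. For antisense against sense between the mutants, 2204 of all 6387 genes were called lower and 1049 higher, and 1780 and 1450 with antisense totals. Antisense against sense gave 6 to 17, 0 to 7 and, between the mutants, 2 to 10 calls with left-out libraries, where 6 were called (4 lower and 2 higher), and 10 there with antisense totals (4 lower and 6 higher). Copy ratios gave 10 to 11, 1 to 3 and 6 to 9 calls. The 1 exon call in ck2ts gave way to 0 to 1 with left-out libraries and 2 with limma; a minimum of 50 reads gave 0 but removes RPS27A before testing, so it says nothing about that call. RPS22B in ck2ts was 0.0056 when its exon with the most reads stood for the gene and -0.175 to 0.0228 with left-out libraries, and RPS14B in spt6-7SA was -0.0259 to 0.105 with left-out libraries; the ratio of RPS22 in spt6-7SA was -0.135 to 0.0684, and none of these passed. The antisense change of RPS26B in ck2ts was -0.34 with antisense totals. The cause was not tested.

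Same-numbered libraries deviated together (correlations 0.48, 0.35 and 0.43 between the groups), but each group has only 2 and no label ties the numbers. With the replicate number as a block, 54, 55 and 39 members were called on the sense strand by edgeR. Calls over all 6776 genes rose as well, from 4371, 3427 and 3538 to 4997, 4398 and 4419. RPS15 passed in spt6-7SA with the block (-0.37, adjusted p = 0.012). For pairs and exon ratios the block was fitted in limma. It gave 6 pairs in spt6-7SA (13 of all 61) and 2 exon ratios in ck2ts, against 2 (5 of all 61) and 2 by limma without the block. The pairs that differed between the mutants were 6 lower and 4 higher, against 3 and 3 by limma without the block and 3 and 6 by edgeR. Depth limits the antisense values, with medians of 8 to 38.5 reads per library, and the first exons.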
